A study of Mus musculus with 4 samples.

Results

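The array of cells labelled myr-Akt was compared directly with the array of cells labelled c-Myc, 2 of the 4 arrays of the series. Every gene with a probe set that names that gene alone was taken, which gave 18193 genes, and the 9771 of them whose signal exceeded a floor of 100.001 on at least 1 of both arrays are called measured here. All cultures were p53-/- mouse fetal liver progenitor cells, which can form hepatocytes and bile duct cells, grown in medium with fetal bovine serum, dexamethasone, EGF and HGF. One culture was transformed with myr-Akt, a form of the kinase AKT1 that carries a myristoyl group and so stays at the membrane. The other was transformed with c-Myc, a transcription factor. The array of another transformed culture, labelled H-RasV12 (the GTPase H-Ras locked in its active state), is given beside these values where it helps to place them. The non-transformed array was not compared. It entered only the common scale and 1 alternative choice of probe sets. The sources used here do not give the vectors and their promoters, the number of clones, the passages grown or the age of the fetuses. There was 1 array for each culture, so no difference below could be set against a spread between cultures, and none has a standard error or a p-value.

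AKT is switched on at the membrane downstream of PI3-kinase by insulin, IGF and other growth factors. It phosphorylates and holds back FOXO transcription factors, and it activates the mTORC1 kinase, which drives protein and lipid synthesis. MYC pairs with MAX on E-box sequences and raises the transcription of genes for ribosome production, nucleotide synthesis and the cell cycle. Both can drive liver tumours in mice when overactive.

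The transduced genes were read first. Myc had a signal of 639.7 on the array labelled myr-Akt, 421 on the array labelled c-Myc and 1747 on the array labelled H-RasV12. Myc was thus lower on the array whose label names it than on either of the others. Akt1 had signals of 2834, 2991 and 2760 on the same arrays, which lie within 1.5-fold of each other. The sources used here do not say whether these probe sets can see the transgenes, so these values do not check the labels. Every direction below is that of the array labelled myr-Akt against the array labelled c-Myc.

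The 2 arrays were close to each other. The log2 difference between them had a median of -0.01 over the measured genes, and its quartiles were -0.21 and 0.18. In all, 8626 of 9771 genes (88.3%) differed by less than 1.5-fold. A difference of at least 2-fold was seen in 379 genes, or 3.88% of those measured. Of these, 163 genes (1.67%) were higher on myr-Akt and 216 genes (2.21%) were lower. The H-RasV12 array stood farther off: 1471 of 10270 genes (14.3%) differed by at least 2-fold between it and myr-Akt, and 1480 of 10277 genes (14.4%) between it and c-Myc. These pairs share arrays. The SD of the log2 difference over genes above the floor on both arrays was 0.42 for myr-Akt against c-Myc, 0.75 for H-RasV12 against myr-Akt and 0.74 for H-RasV12 against c-Myc.

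Large differences were few and were found mostly among dim genes. On myr-Akt 23 genes were at least 4-fold higher and 21 were at least 4-fold lower, and 7 and 3 passed 8-fold. Of genes whose mean signal was under 250, 8.59% differed by at least 2-fold, against 1.04% of genes over 2000. Of the 163 higher genes, 31 were at the floor on c-Myc, and of the 216 lower genes, 35 were at the floor on myr-Akt. For these the fold is a lower bound, written as at least N-fold. The counts were 102 higher and 129 lower when the mean over a gene's probe sets stood for it, and 105 and 140 with the floor at 40% of the trimmed mean in place of 20%. The RNA controls lay close together: the 5′ to 3′ signal ratio of beta-actin was 0.846 on myr-Akt and 0.870 on c-Myc, and the spiked bacterial controls differed by a median of 0.07 on the log2 scale.

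**Figure D1:**
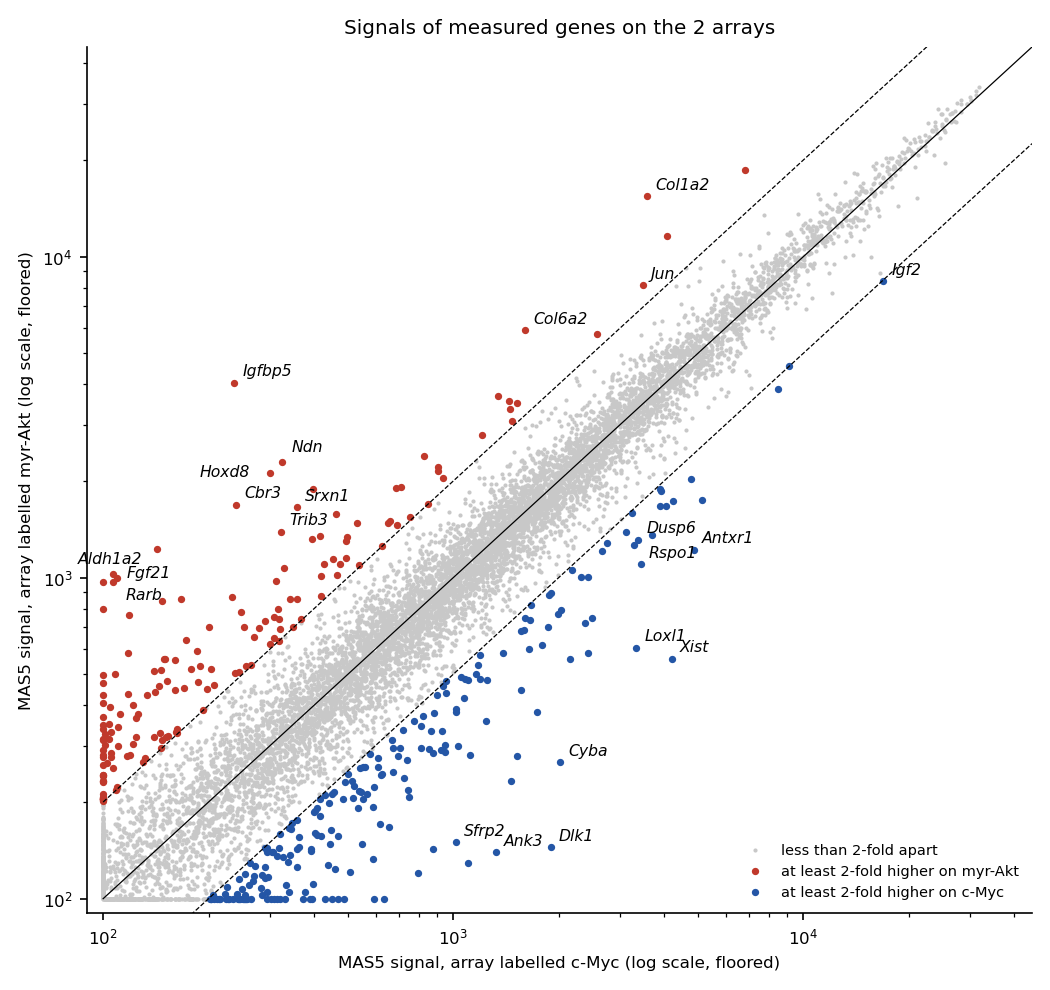
MAS5 signal of each of the 9771 measured genes on the array labelled c-Myc (x axis, log scale) and on that labelled myr-Akt (y axis, log scale), with signals under the floor drawn at the floor. The solid line marks equal signal and the dashed lines 2-fold; red points are the 163 genes at least 2-fold higher on myr-Akt, blue points the 216 at least 2-fold lower, and most of both are dim.

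Other probe sets of the same genes gave the check of measurement that 1 array a side allows. They share the array, so they are not replicates of the culture. Of the 379 genes, 156 had a further single-gene probe set above the floor on at least 1 of both arrays. In 151 of these it differed in the same direction, in 74 by at least 2-fold, and in 0 by at least 2-fold the other way. Over all measured genes with such a probe set, 3165 of 4542 (69.7%) had the same sign. Where both probe sets of a gene were above the floor on both arrays, their log2 differences stood apart with an SD of 0.30 over 4118 measured genes. For the 102 such genes at least 2-fold apart by the brightest probe set, the SD was larger, at 0.62.

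**Figure D2:**
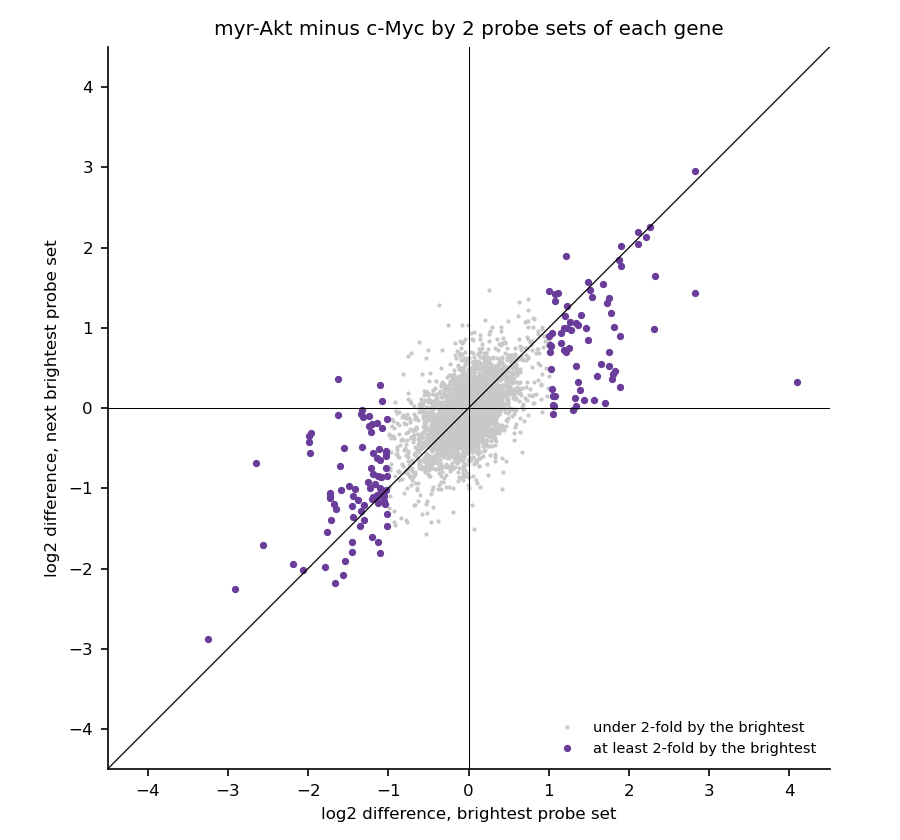
Log2 difference, myr-Akt minus c-Myc, by the brightest probe set of a gene (x axis) and by its next brightest (y axis), for the 4542 measured genes with a further probe set above the floor on at least 1 of both arrays. Purple points are the 156 genes at least 2-fold apart by the brightest probe set; 151 of them have the same sign on both axes, and Igfbp5, at 4.10 and 0.33, lies farthest from the diagonal.

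Pathway and marker lists show where these genes lie. There were 40 pathway lists and 8 lists of markers of other cell types, and each is described by how many measured members differed by at least 2-fold in each direction and by the median log2 difference. The lists share members. Trib3 stands in the NRF2, ATF4 and PI3K lists, and Fgf21 in the lists for ATF4, fatty acid oxidation and FGF signals. Up to 4 members of a list were named by a rule on size, and further members past 2-fold were named after their values were seen. Each count below is to be read beside the 1.67% of all measured genes that were higher and the 2.21% that were lower.

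**Figure D3:**
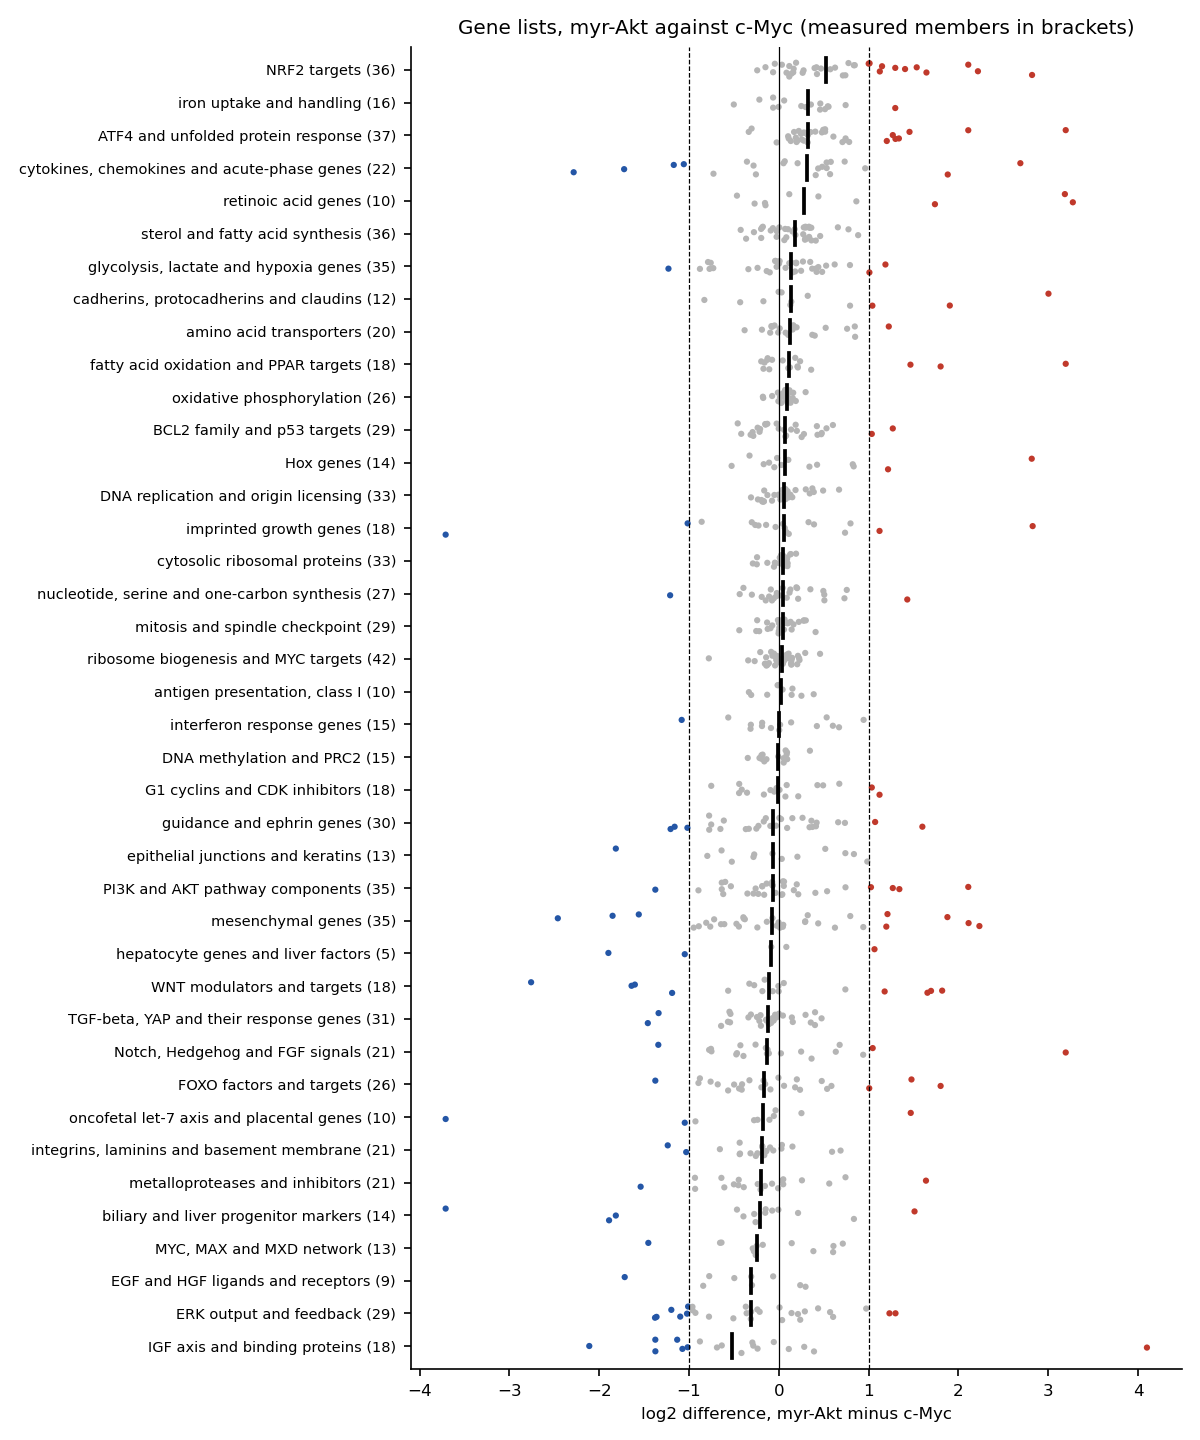
Log2 difference, myr-Akt minus c-Myc (x axis), of the measured members of the 40 pathway lists (rows, number of members in brackets). Each point is a gene, the thick bar is the list's median and the dashed lines mark 2-fold; red points are at least 2-fold higher and blue points at least 2-fold lower on myr-Akt. NRF2 targets have the highest median, 0.52, and the IGF axis the lowest, -0.53.

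Part of the NRF2 targets were higher on myr-Akt. NRF2 is a transcription factor that KEAP1 holds in check until oxidants or electrophiles release it, and its targets make glutathione, NADPH and detoxifying enzymes. Of 36 measured NRF2 targets, 11 were at least 2-fold higher on myr-Akt and 0 were lower, a share of 30.6% against 1.67% over all genes. The median log2 difference was 0.52, and 32 members had a positive one. The summed signal of the list was 187267 on myr-Akt, 151264 on c-Myc and 155353 on H-RasV12. Bright members weigh most in this sum, so it does not place H-RasV12 for the members that differed.

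The largest of these differences was in Cbr3, a carbonyl reductase, with signals of 1689 on myr-Akt, 239 on c-Myc and 1215 on H-RasV12. That is a 7.06-fold difference between the 2 arrays, and H-RasV12 lay nearer to myr-Akt. Cbr1, its neighbour in the genome and also a carbonyl reductase, read 2037, 934 and 1134 and was 2.18-fold higher on myr-Akt. Srxn1 (sulfiredoxin, which repairs oxidised peroxiredoxins) read 1661, 357 and 1218. Its fold was 4.65, and a further probe set gave a log2 difference of 2.13 beside 2.22. Nqo1, a quinone reductase often used as a readout of NRF2, read 973 on myr-Akt, 311 on c-Myc and 703 on H-RasV12, a 3.13-fold difference.

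Of the genes of glutathione synthesis and conjugation, Gclc and Gsta4 passed 2-fold. Gclc, the catalytic subunit of the enzyme that limits glutathione synthesis, read 5728 and 2582 (2.22-fold), and its partner subunit Gclm read 8421 and 5036.5 (1.67-fold). Gsta4, a glutathione transferase for lipid aldehydes, read 2393 and 825 (2.90-fold). Hmox1, which breaks down haem, read 2217 and 902 (2.46-fold). Aox1 (aldehyde oxidase), Ephx1 (microsomal epoxide hydrolase) and Osgin1 were 2.65-, 2.02- and 2.00-fold higher, and Trib3 is described with ATF4 below. The H-RasV12 array was mixed over these 11 members. It was above myr-Akt for Gsta4 (2723), Aox1 (783.5) and Osgin1 (837). It lay nearer to myr-Akt for Cbr3, Srxn1, Nqo1 and Gclc, and nearer to c-Myc for Ephx1, Cbr1, Hmox1 and Trib3. The NADPH enzymes Me1 and Pgd were 1.71- and 1.64-fold higher, under the threshold. Nfe2l2, which encodes NRF2 itself, read 3304 and 2470.3, a log2 difference of 0.42 that its next brightest probe set gave as -0.62. Gss, Gsta3 and Gstm2 were within 1.5-fold, and Fth1, Gstp1, Gstm5 and Ugdh had small negative differences.

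Several ATF4 targets were also higher on myr-Akt. ATF4 is translated when the kinases PERK, GCN2 or others phosphorylate the initiation factor eIF2α, in response to unfolded protein or lack of amino acids. It raises genes for amino acid supply and, when stress lasts, the factor CHOP. Of 37 measured members of the ATF4 and unfolded protein response list, 7 were at least 2-fold higher on myr-Akt and 0 were lower (18.9% against 1.67% over all genes). The median log2 difference was 0.32, and 34 of the 37 were positive.

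Fgf21, a secreted hormone of the fasting and stress response, had a signal of 1001 on myr-Akt, 109.3 on c-Myc and 13.7 on H-RasV12. The 9.16-fold difference between the 2 arrays rests on a c-Myc signal just above the floor. Trib3, a pseudokinase that binds AKT and is induced by ATF4 and CHOP, read 1392, 322 and 386, a 4.32-fold difference that a further probe set gave as 1340 against 293. Chac1, which breaks down glutathione, read 3689.7, 1345 and 1044, or 2.74-fold. These 3 genes were higher on myr-Akt than on both other arrays. So were the other higher members of the list, Nupr1, Ddit3, Sesn2 and Herpud1, by their brightest probe sets. On H-RasV12 Ddit3, Sesn2 and Herpud1 read 1153, 423 and 930.

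Nupr1, a small stress-induced chromatin protein, read 1147 on myr-Akt, 454 on c-Myc and 326 on H-RasV12 (2.53-fold). Ddit3, which encodes CHOP, read 3553 and 1444 by its brightest probe set (2.46-fold), while its next brightest read 948 and 960.5 and showed no difference. Sesn2, a leucine sensor that restrains mTORC1, read 1013 and 420.3 (2.41-fold). Herpud1, which takes part in the disposal of unfolded proteins at the endoplasmic reticulum, read 3508 and 1524 (2.30-fold). Atf4 itself read 13618 and 9665, a log2 difference of 0.49. The chaperones of the endoplasmic reticulum differed less: Hspa5 and Hsp90b1 were bright on both arrays and stayed under 1.5-fold, and Asns, an amino acid gene of ATF4, did too. Cth, of cysteine synthesis, read 1910.4 and 709 (2.70-fold), and the neutral amino acid transporter Slc1a4 read 744 and 318 (2.34-fold). They lie in the lists for serine and one-carbon synthesis (1 of 27 higher, 1 lower) and amino acid transport (1 of 20 higher, 0 lower).

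Promoters of ATF4 list members were searched for the motif TGATGNAA, bound by ATF4 with a C/EBP partner, on both strands from 250 bases before to 50 bases after the start in RefSeq (mouse build GRCm38.p6). Of the 7 higher members, 5 held it: Fgf21, Chac1, Nupr1, Herpud1 and Trib3. Stretches of the promoters of Fgf21, Chac1 and Nupr1 are shown because their match lies before the start and they are the 3 such genes with the largest differences. The sequence runs 5′ to 3′ on the gene's strand, and capitals mark the match, which is the motif read on the opposite strand. The stretches are Fgf21 at chr7:45615586-45615665 (minus strand), Chac1 at chr2:119351013-119351092 (plus strand) and Nupr1 at chr7:126625537-126625616 (minus strand).
Fgf21: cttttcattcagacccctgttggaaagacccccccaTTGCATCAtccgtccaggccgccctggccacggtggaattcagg
Chac1: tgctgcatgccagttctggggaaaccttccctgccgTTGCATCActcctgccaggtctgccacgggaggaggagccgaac
Nupr1: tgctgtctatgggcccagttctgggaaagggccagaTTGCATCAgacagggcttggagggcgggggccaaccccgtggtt
The match began 139, 193 and 110 bases before the start of these genes, and its 8 bases were the same in all 3. The motif fixes every base but the N, so this sameness was largely set by the search. In Trib3 it began 14 bases after the start. The motif stood in 195 of the 8025 measured genes with a promoter window (2.43%), in 10 of 135 genes at least 2-fold higher on myr-Akt (7.41%) and in 2 of 161 genes at least 2-fold lower (1.24%). Of the 33 ATF4 list members with a window, 10 held it. The 5 list members named above are among the 10 higher genes with the motif, so these shares are not separate findings. They describe letters in a window, and no binding was measured.

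**Figure D4:**
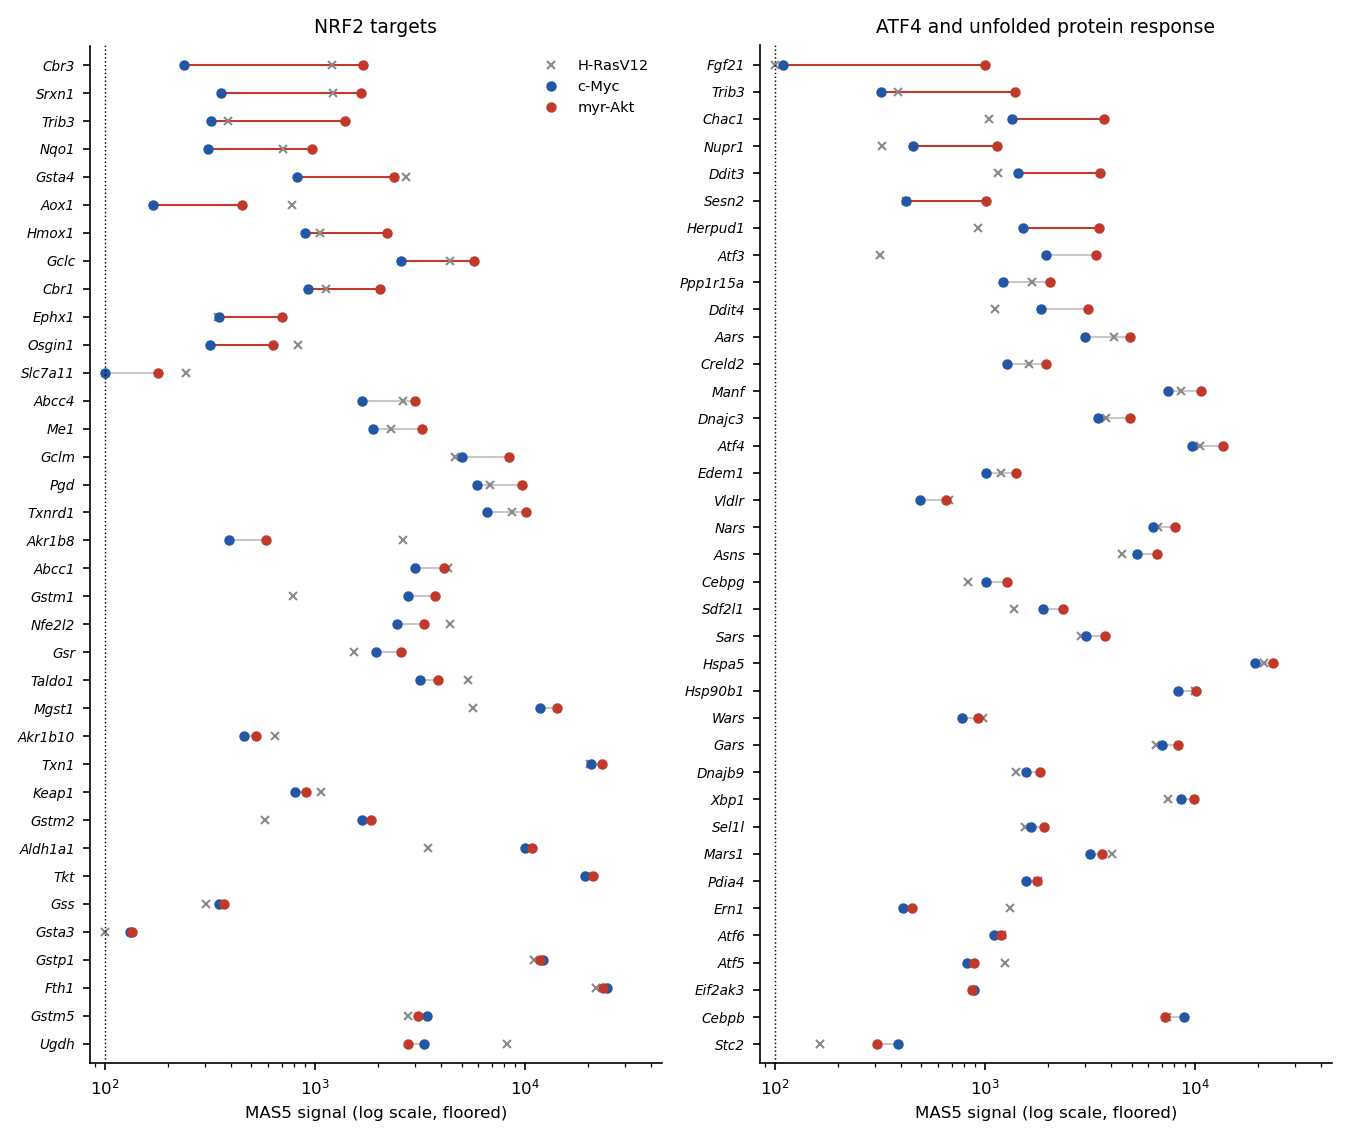
MAS5 signal (x axis, log scale, signals under the floor drawn at the dotted floor line) of each measured member of the NRF2 list (left) and the list of ATF4 targets and unfolded protein response genes (right) on the arrays labelled myr-Akt (red), c-Myc (blue) and H-RasV12 (grey crosses). Red connecting lines mark the 11 and 7 members at least 2-fold higher on myr-Akt; the red point lies to the right of the blue one in 32 of 36 and 34 of 37 rows.

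Retinoic acid genes held some of the largest differences. Retinoic acid is made from retinol by retinol and retinal dehydrogenases, and it acts through RAR and RXR receptors on genes that include Rarb itself. Of 10 measured members of the list, 3 were at least 2-fold higher on myr-Akt (30% against 1.67% over all genes) and 0 were lower, with a median log2 difference of 0.28. Aldh1a2, which makes retinoic acid and marks mesothelium and mesenchyme, read 967.5 on myr-Akt, 72.3 on c-Myc and 58.2 on H-RasV12. It was at the floor on both other arrays and so at least 9.67-fold higher on myr-Akt than on c-Myc. Rarb, a receptor, read 973, 106.9 and 401, a 9.10-fold difference from a c-Myc signal just above the floor. Dhrs3, which turns retinal back to retinol and is itself induced by retinoic acid, read 1316, 394 and 725 (3.34-fold). Rdh10, which makes retinal, was 1.82-fold higher, and the receptors Rarg, Rxra and Rxrb stayed under 1.5-fold. Aldh1a1, another retinal dehydrogenase, was bright on both arrays and stayed under 1.5-fold. Cyp26a1 and Cyp26b1, which break retinoic acid down and are common readouts of it, were under the floor on both arrays.

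The Rarb promoter is shown because its response element is a textbook site for retinoic acid receptors. The motif GGTTCANNNNNAGTTCA was searched after the values were seen, on both strands, and stood in 1 of 8025 windows, that of Rarb. Its fixed letters are those of this Rarb site, so the match was set in advance. The count says nothing about looser forms of the element in other genes. The stretch lies at chr14:16575477-16575565 (minus strand, RefSeq, GRCm38.p6), 5′ to 3′ on the gene's strand, with the match in capitals and beginning 53 bases before the start.
Rarb: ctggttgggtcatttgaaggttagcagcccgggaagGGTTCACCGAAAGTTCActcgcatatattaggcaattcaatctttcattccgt

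Several feedback genes of the ERK pathway were lower on myr-Akt. ERK is the last kinase of the RAS, RAF and MEK chain, and it induces its own inhibitors: the DUSP phosphatases and the Sprouty and SPRED proteins. Of 29 measured members of the ERK output list, 6 were at least 2-fold lower on myr-Akt (20.7% against 2.21% over all genes) and 2 were higher, with a median log2 difference of -0.31. With the mean over each gene's probe sets, 2 members were lower. Dusp4, a nuclear phosphatase of ERK, had a signal of 333 on myr-Akt, 866 on c-Myc and 11525 on H-RasV12. Dusp6, its cytoplasmic counterpart, read 1314.5, 3377 and 12162. The differences of 2.60-fold and 2.57-fold between the 2 arrays were smaller than the step from either of them to H-RasV12.

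Among the SPRED and Sprouty inhibitors, 3 passed 2-fold. Spred2 read 682 on myr-Akt, 1563 on c-Myc and 2068 on H-RasV12 (2.29-fold), and Spred1 read 491, 1051 and 1841 (2.14-fold), with a further probe set at a log2 difference of -1.07. Spry4 read 98.0, 203 and 319.5, so it was at least 2.03-fold lower. The transcription factor Egr2 read 144 and 290.3 (2.01-fold). Etv5, an ETS factor, and Egr3 were at the floor on myr-Akt and at least 1.95- and 1.94-fold lower. Hmga2 and Dusp5 differed by 1.90- and 1.71-fold, and Spry1 and Spry2 by less than 1.5-fold, all on the lower side. Dusp7 was on the higher side, at 258 and 190.5 (1.35-fold), and its next probe set gave -0.27. In all of these but Egr2, Egr3 and Dusp7, the H-RasV12 array was the highest of the 3.

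The 2 members of the list that were at least 2-fold higher on myr-Akt were Jun and Fosb, of AP-1. Jun, a subunit of AP-1, read 8167.5 on myr-Akt, 3476 on c-Myc and 2757 on H-RasV12, and was 2.35-fold higher by its brightest probe set and 1.28 on the log2 scale by the next. Fosb read 755, 307 and 848 (2.46-fold), and Fosl1 read 284.5, 145 and 2947 (1.96-fold). Fos, Junb, Ier2 and Egr1, which respond quickly to growth factors, stayed under 1.5-fold, and Junb was on the lower side, at -0.31 on the log2 scale. Ccnd1, cyclin D1, had signals of 517 and 514 on both arrays and of 13638 on H-RasV12. Of the EGF and HGF ligands and receptors, 9 were measured and 1 was at least 2-fold lower: Spint2, an inhibitor of the protease that activates HGF, read 724 and 2379 (3.28-fold lower) and its next probe set gave a log2 difference of -1.40.

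The IGF axis held 1 gene much higher on myr-Akt and several lower ones. IGF1 and IGF2 act through the receptor IGF1R and the adaptor IRS2 to activate PI3-kinase, and binding proteins and their proteases set how much IGF is free. Of 18 measured members, 1 was at least 2-fold higher on myr-Akt (5.56% against 1.67% over all genes) and 6 were lower (33.3% against 2.21%), with the lowest median of all pathway lists, -0.53. Igfbp5, a binding protein held in the matrix, read 4052 on myr-Akt, 236 on c-Myc and 76.9 on H-RasV12. This 17.1-fold difference was the largest after flooring, where genes at the floor on c-Myc have only bounds. It comes from a probe set that can bind more than 1 transcript, and the gene's other probe set read 125.3 on myr-Akt and 42.8, under the floor, on c-Myc.

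The receptor Igf1r and the ligand Igf2 were lower on myr-Akt. Igf1r read 1268 on myr-Akt, 3286.5 on c-Myc and 3743 on H-RasV12 (2.59-fold), with a further probe set at -1.15. Irs2, the adaptor, read 481, 1246 and 1134 (2.59-fold). Insr, the insulin receptor, was 1.84-fold lower. Igf2, the fetal growth factor, read 8384, 16943 and 621, so it was 2.02-fold lower than on c-Myc while both arrays were far above H-RasV12. The proteases that cut IGF binding proteins, Pappa and Pappa2, were 2.10-fold and at least 4.32-fold lower, but the next probe set of Pappa read 137.5 and 129.5 and showed no lowering. Igfbp3, the main carrier of IGF in serum, read 536 and 1174 (2.19-fold lower), and its next probe set gave -1.67.

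Imprinted genes, which are expressed from 1 parental allele and many of which control fetal growth, differed in both directions. Of 18 measured, 2 were at least 2-fold higher on myr-Akt and 2 lower, with a median of 0.06. Dlk1, a membrane protein that marks hepatoblasts, read 145 on myr-Akt, 1898 on c-Myc and 262 on H-RasV12. At 13.1-fold it was the most lowered gene after flooring (genes at the floor have bounds and could lie lower), and its other probe set was under the floor on both arrays. Ndn (necdin, a growth suppressor of neurons and other cells) read 2294, 323 and 437 and was 7.09-fold higher, with a further probe set at a log2 difference of 2.96. Cdkn1c, the CDK inhibitor p57, read 1016 and 467 (2.18-fold higher). Peg3 was 1.74-fold higher and Mest 1.81-fold lower, and Plagl1 and Grb10 stayed under 1.5-fold.

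Components and readouts of the AKT pathway had no common direction. Of 35 measured PI3K and AKT components, 4 were at least 2-fold higher on myr-Akt and 1 was lower, with a median of -0.07. The higher ones were Trib3, Sesn2 and the regulatory subunits of PI3-kinase Pik3r3 (800.4 and 316, 2.54-fold) and Pik3r1 (1097 and 539, 2.04-fold), and the lower one was Irs2. Of 26 FOXO factors and targets, 3 were higher and 1 was lower, with a median of -0.16. Gadd45a, of the DNA damage response, was 2.78-fold higher. Ppargc1a, a coactivator of mitochondrial genes, was at least 3.49-fold higher, and Klf4 was 2.01-fold higher. Foxo1 and Foxo3 stayed under 1.5-fold.

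In the lists for ribosomes and cell division, which MYC is known to raise, no gene reached 2-fold. Of 42 ribosome biogenesis genes and MYC targets, 33 cytosolic ribosomal proteins, 33 genes of DNA replication and 29 of mitosis, 0 differed by at least 2-fold in either direction. Their medians were 0.03, 0.05, 0.06 and 0.04. Many of these genes were bright. Of all genes with a mean signal over 2000, 1.04% differed by at least 2-fold, so 0 lies near the share for such genes. Of 13 measured members of the MYC, MAX and MXD network, 1 was lower on myr-Akt: Mxd4, which competes with MYC for MAX, read 269.6 on myr-Akt, 738 on c-Myc and 342 on H-RasV12 (2.74-fold). Mycn, the neuronal paralogue of Myc, read 26244, 23749.6 and 23651 by its brightest probe set, while its next brightest was far dimmer and lower on myr-Akt, at 174.8 and 347 on c-Myc. Of the G1 cyclins and CDK inhibitors, 2 of 18 were higher, Cdkn1c and Cdkn1a, the latter at least 2.05-fold. Oxidative phosphorylation (26 measured) and sterol and fatty acid synthesis (36 measured) also held 0 genes past 2-fold, with medians of 0.09 and 0.18. Of 35 glycolysis and hypoxia genes, 2 were higher and 1 lower: Hk1 and Vegfa were 2.28- and 2.01-fold higher, and Ndrg1 2.34-fold lower.

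WNT modulators differed in both directions and by large folds. WNT ligands act through Frizzled receptors, R-spondins strengthen their signal and secreted Frizzled-related proteins bind and mostly block them. Of 18 measured members, 4 were at least 2-fold higher on myr-Akt and 4 lower (22.2% each, against 1.67% and 2.21% over all genes), with a median of -0.11. With the mean over each gene's probe sets, 2 were higher and 2 lower. Among the ligands, Wnt4 read 517 on myr-Akt, 147 on c-Myc and 1231 on H-RasV12 (3.53-fold), while its next probe set gave a log2 difference of 0.47. Wnt5a read 315, 86.6 and 1653 (at least 3.15-fold), and its next probe set gave a bound of 0.54. The R-spondins went opposite ways: Rspo3 read 1350.2 and 417 (3.24-fold higher; 104.9 and 35.2 by its next probe set), while Rspo1 read 1101 and 3428 (3.11-fold lower), and both were near or under the floor on H-RasV12.

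The secreted blockers were split too. Sfrp2 read 150.3 on myr-Akt, 1017 on c-Myc and 26.5 on H-RasV12 and was 6.76-fold lower. Sfrp1 was 3.04-fold lower, at 238 and 724, with a further probe set at -0.72. Sfrp4 was 2.26-fold higher, at 449 and 198. Tcf7l2, a transcription factor at the end of the pathway, was 2.28-fold lower, with a further probe set at -0.56. The Frizzled receptors Fzd1, Fzd2, Fzd7 and Fzd8 and the target Cd44 did not reach 2-fold.

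Genes of the matrix and of mesenchyme were split in the same way. Of 35 measured mesenchymal genes, 5 were at least 2-fold higher on myr-Akt (14.3% against 1.67% over all genes) and 3 lower (8.57% against 2.21%), with a median of -0.07. With the mean over each gene's probe sets, 3 were higher. Col1a2, a chain of collagen I, read 15479 on myr-Akt, 3577.5 on c-Myc and 21412 on H-RasV12. It was 4.33-fold higher and its next probe set gave 2.05 on the log2 scale, while Col1a1, the chain it pairs with, read 2598 and 2120 and stayed under 1.5-fold. Col6a2 read 5900.2, 1605.5 and 268 (3.67-fold), and Col6a1 was 1.74-fold higher. Postn (periostin, a matrix protein of wounds and tumours) read 470.4, 11.1 and 8.3 and was at least 4.70-fold higher. Tnc and the transcription factor Prrx1 were 2.29-fold and at least 2.31-fold higher.

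Lowered on myr-Akt were Loxl1, Twist1 and Bgn. Loxl1, which crosslinks elastin, read 606 on myr-Akt, 3335 on c-Myc and 734 on H-RasV12 (5.50-fold), although its other probe set was under the floor. Twist1, a transcription factor of mesenchyme, read 207.5, 748 and 1164 (3.61-fold). Bgn (biglycan) read 1748, 5150.2 and 8032 (2.95-fold), and its next probe set gave -2.08. The contractile gene Tagln was 1.85-fold lower, and Acta2, Vim, Fn1 and Sparc did not reach 2-fold. In the list of integrins, laminins and basement membrane genes, 2 of 21 measured members were at least 2-fold lower (9.52% against 2.21% over all genes). These were Nid2 and Lamb1, 2.36- and 2.04-fold lower. The median log2 difference of the list was -0.18, with 16 members negative and 5 positive. No member was at least 2-fold higher, which carries little weight because only 1.67% of all genes were.

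**Figure D5:**
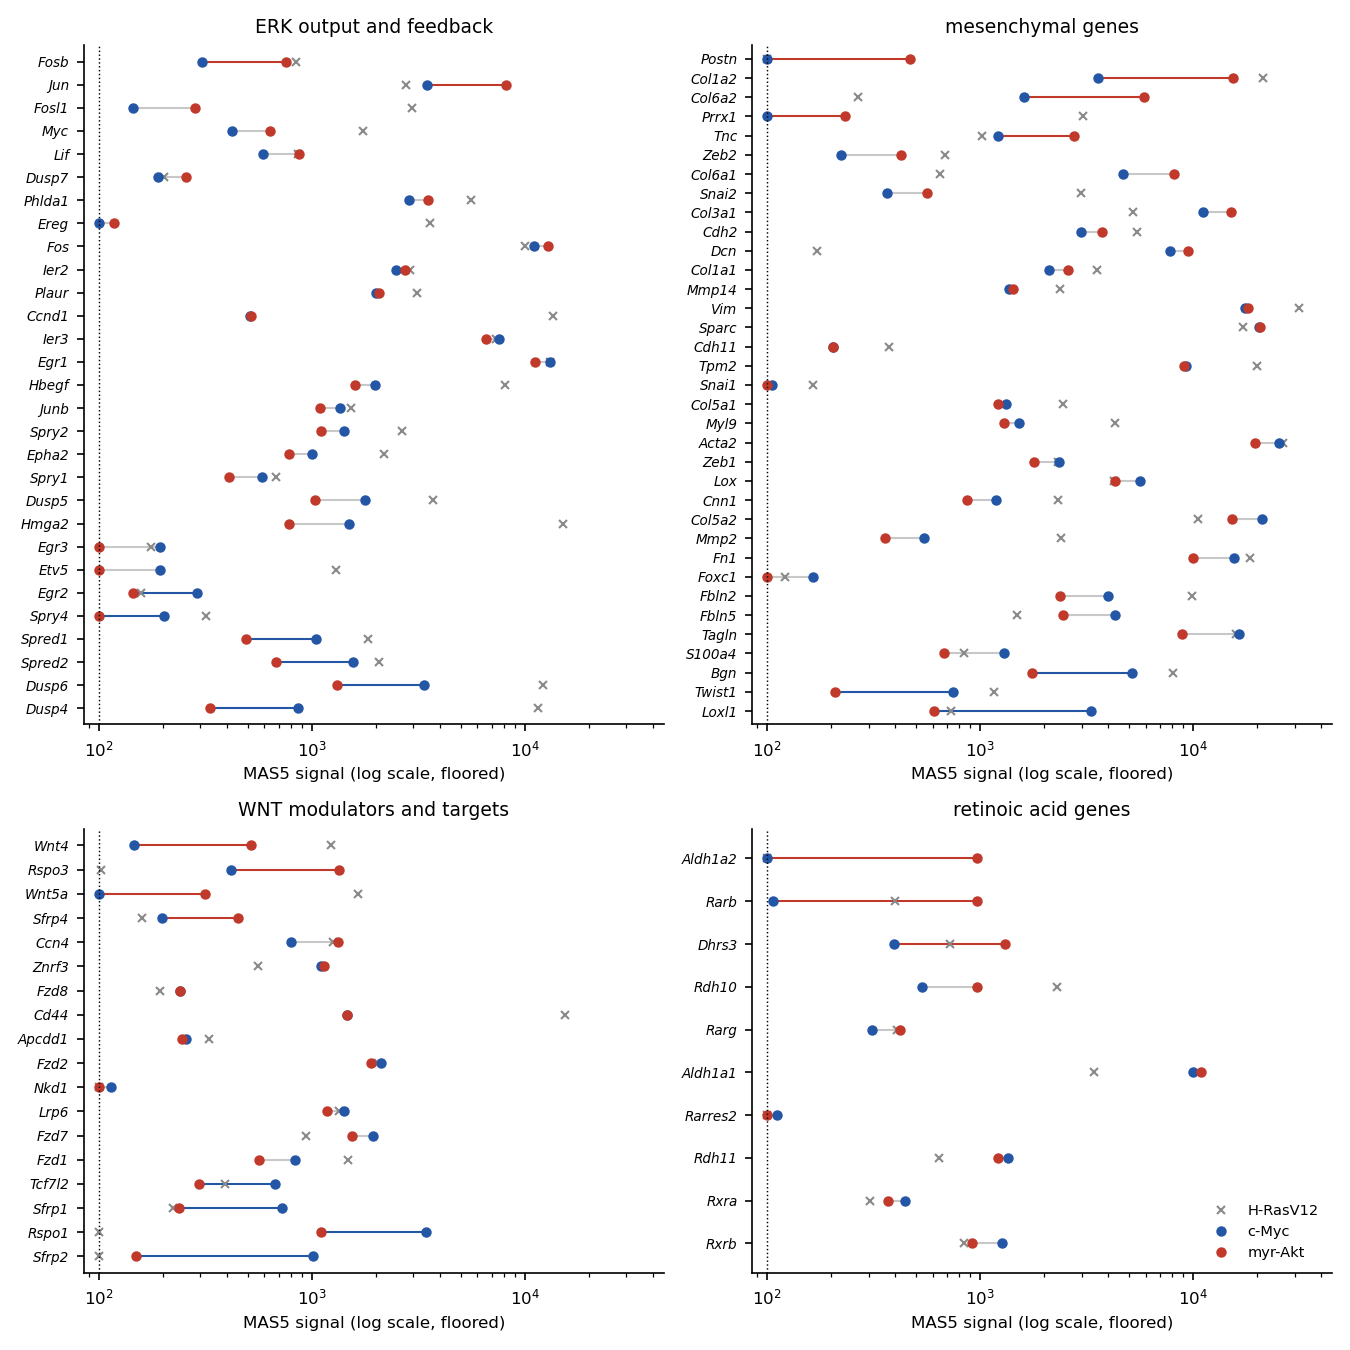
MAS5 signal (x axis, log scale, signals under the floor drawn at the dotted floor line) of each measured member of 4 lists on the arrays labelled myr-Akt (red), c-Myc (blue) and H-RasV12 (grey crosses). Red and blue connecting lines mark members at least 2-fold higher or lower on myr-Akt: 2 and 6 of the ERK list, 5 and 3 of the mesenchymal list, 4 and 4 of the WNT list, and 3 and 0 of the retinoic acid list.

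The liver label was set against its markers. Only 5 of the 37 hepatocyte genes with a probe set were measured: Alb (albumin) and Afp (alpha-fetoprotein), the main plasma proteins of adult and fetal liver, were under the floor on both arrays. Foxa2, a pioneer factor of endoderm, read 3082 on myr-Akt and 1472 on c-Myc (2.09-fold higher). Gpc3, a fetal liver proteoglycan, read 1889.5 and 3904 (2.07-fold lower), and Apoe was at least 3.72-fold lower. The biliary and progenitor list had 14 of 20 genes measured. Sox4, Hes1 and Notch2 stayed under 1.5-fold. Cd24a, a progenitor surface marker, was 2.85-fold higher, at 11635 and 4081. Krt7 and Aqp1, of bile duct cells, were 3.52- and 3.71-fold lower, and Krt19, a duct keratin, stayed under 1.5-fold at 1493 and 1804. Krt8 and Cdh1, of epithelia, were under the floor on both arrays.

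Markers of other cell types were measured to differing extents. All 12 mesothelial markers were measured, and 10 of them did not reach 2-fold. Upk3b read 12838 on myr-Akt and 11557 on c-Myc, and Wt1 read 3772 and 3438, so both arrays carried this signature at a like level, with summed signals of 47682 and 47698. The H-RasV12 sum was 15615. The exceptions were Aldh1a2 and Rspo1, already described. Fibroblast markers had 6 of 14 genes measured, 3 of them at least 2-fold higher on myr-Akt (Col1a2, Postn and Prrx1; 50% against 1.67% over all genes) and 0 lower, and a summed signal of 43725 on myr-Akt and 24943 on c-Myc. Lum, of that list, was under the floor on both arrays. In bulk RNA, fewer cells of a type and less RNA per cell cannot be told apart, and the part of this difference in the matrix results was not tested.

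Blood and vessel cells were at or near the floor. Of 17 endothelial markers 1 was measured (Egfl7), and Pecam1 read 3.3 and 1.3. Of 20 markers of macrophages and leucocytes 3 were measured, the brightest being Cd14 at 148 and 136, and Ptprc read 1.4 and 8.4. Of 13 erythroid markers with a probe set only the transferrin receptor Tfrc, which dividing cells also use, was measured. Neural and muscle markers had 4 measured genes each. Prph (peripherin) read 120.3 and 792 (6.59-fold lower), while Tubb3 and Stmn2 were 2.99-fold and at least 3.38-fold higher, so the neural list had no common direction. Tnnt2, cardiac troponin T, was 3.39-fold lower.

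Inflammatory genes were split. Of 22 measured cytokines, chemokines and acute-phase genes, 2 were at least 2-fold higher on myr-Akt and 4 lower, with a median of 0.31. Il33, an alarmin released from damaged cells, read 767 on myr-Akt, 119 on c-Myc and 21389.5 on H-RasV12 (6.45-fold higher). Il18, activated by inflammasomes, was 3.68-fold higher. The complement protease C1s1 was at least 4.87-fold lower and the chemokine Cxcl16 at least 3.30-fold lower. Interferon response genes had 1 of 15 lower, Ifit2 (2.12-fold), and a median of 0.01, and class I antigen presentation had 0 of 10 past 2-fold.

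Several of the largest differences lay outside these pathways. Spon2, a secreted matrix protein, read 1025 on myr-Akt, 106.7 on c-Myc and 178 on H-RasV12 (9.61-fold higher), and its other probe set was under the floor. Fbxo2, a ubiquitin ligase subunit that recognises sugar chains, read 1231, 143 and 261 (8.62-fold). Hoxd8, a homeobox factor of trunk and limb position, read 2118, 301 and 32.4 (7.04-fold), with a further probe set at 1.44 on the log2 scale, and Hoxd1 was at least 2.32-fold higher. Of the 14 measured members of the Hox list, which also holds Pbx and Meis genes, 12 were under 2-fold. Cldn10, a claudin that forms ion pores in tight junctions, read 801.6, 54.2 and 89.6 and was at least 8.02-fold higher. Hspb8, a small heat shock protein, was 4.78-fold higher by one probe set and 2.25 on the log2 scale by the next.

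On the c-Myc side, Ank3 (ankyrin G, which anchors membrane proteins to spectrin) read 139.5 on myr-Akt, 1322 on c-Myc and 5144 on H-RasV12. It was 9.47-fold lower on myr-Akt and its next probe set gave -2.88. Myl7, an atrial myosin light chain, read 129.5, 1104.5 and 132 (8.53-fold lower), and Tnni1, slow muscle troponin I, was 6.14-fold lower. Cyba, a subunit of the NADPH oxidase, read 267, 2016 and 2536 (7.55-fold lower). Ptk2b, a kinase related to FAK, was 5.44-fold lower at 279 and 1517. Stom (stomatin) was 4.55-fold lower, with a further probe set at -1.95. Tcf21, a transcription factor of mesothelium and stellate cells, read 133 and 589 (4.42-fold lower).

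Xist, the noncoding RNA that coats and silences an X chromosome in female cells, read 559.5 on myr-Akt, 4209 on c-Myc and 6249 on H-RasV12. It was 7.52-fold lower on myr-Akt, and its 3 probe sets had log2 differences of -2.91, -2.25 and, as a bound, -2.09. The genes Eif2s3y, Kdm5d and Uty of the Y chromosome, looked up after the Xist value was seen, were above the floor on both arrays. Eif2s3y read 945 on myr-Akt and 642.5 on c-Myc, Kdm5d read 366 and 259.7, and Uty read 204 and 140.4, so all 3 were within 1.5-fold. The sources used here do not say how many fetuses the cells came from or of which sex, and the part of this in other differences was not tested.

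The H-RasV12 array took no side. Of the 163 genes higher on myr-Akt, its value was nearer to myr-Akt in 84 and nearer to c-Myc in 79. Of the 216 lower genes it was nearer to myr-Akt in 107 and nearer to c-Myc in 109. It lay between the 2 arrays for 67 and 95 of these genes and outside them for the rest. Fgf21, Igfbp5 and Hoxd8 were high on myr-Akt alone, Dlk1, Sfrp2 and Myl7 were high on c-Myc alone, and Xist, Ank3 and Cyba were low on myr-Akt alone.

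Genes that differed were at times neighbours. In the order of genes in RefSeq, 18 pairs of adjacent measured genes both differed by at least 2-fold in the same direction and 9 pairs in opposite directions, and 35 of 377 placed genes (9.28%) had such a neighbour. On the higher side these included Cbr1 with Cbr3 and Ctsc with Rab38. On the lower side they included Ang with Rnase4, both ribonucleases, Cav1 with Cav2, both coat proteins of caveolae, C1ra with C1s1, both complement proteases, and Fgf2 with Nudt6, which overlap on opposite strands. Overlapping genes are uncertain, since the sources used here do not give the strand of their probe sets. The pairs were chosen after their values were seen. The share of all placed genes that lay beside a gene past 2-fold was not worked out. The 9.28% thus has no background to be read against, and clustering was not tested.

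Of the other motifs searched in promoters, on both strands and in the same windows, none differed much in share between the higher and the lower genes. The ETS motif CCGGAAG stood in 22.3% of all windows, in 6 of 135 higher genes (4.44%) and in 7 of 161 lower genes (4.35%). The FOXO motif GTAAACA stood in 3.03% of all windows, in 9 of the higher (6.67%) and in 9 of the lower genes (5.59%). The E-box CACGTG, bound by MYC and MAX, stood in 12.5% of all windows, in 11 of the higher (8.15%) and in 15 of the lower genes (9.32%). The AP-1 motif TGACTCA stood in 4% of all windows and in 10 genes of each side (7.41% of the higher and 6.21% of the lower). The FOXO and AP-1 shares were thus above those of all windows on both sides, which was not tested. The cyclic AMP response element TGACGTCA stood in 3.85% of all and 3 genes of each side (2.22% and 1.86%). The antioxidant response element TGACNNNGC stood in 16.8% of all windows, in 24 of the higher (17.8%) and in 32 of the lower genes (19.9%). This element stood in 11 of the 31 measured NRF2 targets with a window (35.5%), and in 1 of the 8 of these that were at least 2-fold higher. It can overlap the AP-1 motif, which 3 of those 8 held. Genes with several windows count as holding a motif if any does, and there were 1.28 windows a gene over all and 1.32 and 1.49 on the higher and lower sides.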

How the data were processed

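The deposited table holds linear intensities per probe set, which per the submitters' processing notes come from MAS5. The sources used here do not give its version, detection calls or filters. The myr-Akt array was set against the c-Myc array, with H-RasV12 beside them and 1 array a culture. With Python 3.11.15, pandas 2.3.3 and NumPy 2.4.6, both arrays were scaled to the same mean after trimming 2% at each end (500.003). Signals below 20% of that mean were raised to it as a floor (100.001) before taking log2. Of 45101 probe sets, 64 controls, 932 with several gene symbols and 9147 with none were left out. Each gene was read from its single-gene probe set that was brightest over both arrays. Identifiers ending in _s_at, _x_at or _a_at can mark sets that bind more than 1 transcript. Of 34958 single-gene probe sets, 34754 matched the RefSeq table of GRCm38.p6, used for names, gene order and promoters.

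Named genes were, per direction, the 15 largest differences above the floor on both arrays, the 8 largest bounds, up to 4 members of each list past 2-fold, and Myc and Akt1. Predicted and clone-named genes were left out, as was any gene whose next probe set went at least 2-fold in the opposite direction. The comparison, members and lists were chosen with earlier results of these data known. In all, 100 list genes without a single-gene probe set were not analysed here. The counting was tested on simulated data. The alternatives tried were floors at 10% and 40%, a pseudocount of 100, median, quantile and lowess scaling, the mean over probe sets, the brightest set over 4 arrays, and leaving out sets with those suffixes.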

Additional observations from a re-analysis of the deposited data

How the results depend on the processing

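No named gene past 2-fold changed direction under the alternatives run. A change of floor or a pseudocount cannot reverse a direction. Median centring shifted every gene by only 0.01 on the log2 scale, so it could not reverse a gene past 2-fold either. Quantile and lowess scaling left the median over all genes near 0 and were weak tests of direction. The settings that change probe sets were the ones most able to reverse a gene. The naming rule leaves out genes with an opposite next probe set past 2-fold, but no gene past 2-fold had one. Genes higher and lower on myr-Akt numbered 105 and 140 with the floor at 40%, 102 and 129 with the mean over probe sets, 115 and 134 when a pseudocount replaced the floor, 244 and 284 with the floor at 10%, 184 and 197 after quantile and 180 and 197 after lowess scaling. With the mean over probe sets, 2 ERK list members were lower, 3 mesenchymal genes higher, and 2 WNT genes higher and 2 lower. With _s_at, _x_at and _a_at probe sets left out, 0 IGF genes were higher, because both probe sets of Igfbp5 carry these endings and the gene drops out, so its difference was not tested there. Of the 102 and 129 genes counted with the mean over probe sets, 100 and 127 were among the 163 and 216 reported. Of 108 named genes past 2-fold, 72 stayed so under every alternative run on them. List medians moved by less than the SD between probe sets of a gene (0.30 on the log2 scale) in 420 of 430 values. The other 10 were of hepatocyte genes and of the stellate, endothelial, fibroblast, neural and muscle markers. This is a loose measure, since many list medians were themselves smaller than 0.30. Such a median could fall to 0 or change sign and still count as unmoved. With 1 array a culture, no spread between cultures, batch or passage could be measured. Dim genes carry most differences, and values at the floor have no order. No paired analysis was possible because each group holds 1 array and the labels give no replicate numbers.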
